A study of Homo sapiens with 24 samples.

Results

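SGCTRL cells were set against parental cells after 3 days in medium labelled LPDS, a comparison of 2 lines of which neither is labelled as a TMEM97 knockout. The members were set by their labels, with earlier results of these data known. They are 3 libraries of SGCTRL and 3 of parental cells, 6 of the 24 in the study. Both lines are HGC27, an established human gastric carcinoma line grown in high-glucose DMEM, and both are wild type by their labels. SGCTRL is labelled as the guide control and the other line as parental, with no allele or agent named for either. The other 18 libraries are SGCTRL and parental cells in FBS and 2 TMEM97 knockout lines, SG12 and SG21, in both media, with 3 libraries in each of the 8 groups. LPDS commonly stands for lipoprotein-deficient serum and FBS for fetal bovine serum, which the labels do not spell out. Whether SGCTRL is a clone or a pool, what its guide targets and how long it was kept apart from parental cells are not given in the sources used here. Replicates are said to be independent, with no word on whether that means separate cultures, so the p-values below measure the spread between these libraries, which may be partly technical.

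As background, cells short of lipoprotein cholesterol release the transcription factor SREBP-2 from the endoplasmic reticulum, and it raises the genes of cholesterol synthesis and uptake. TMEM97, the sigma-2 receptor, sits in intracellular membranes and interacts with NPC1, which exports cholesterol from lysosomes, and the study is built around its loss. Complexes III and V of mitochondria, to which several of the genes below belong, carry electrons to cytochrome c and make ATP. A guide-control line is the usual reference for knockout lines because it goes through the same handling, and parental cells do not go through it.

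The values are counts per gene name, and most reads sat on the strand opposite to the named gene. Each row is therefore read by its source gene, the gene on the other strand whose exons it overlaps, and the row's own name is given in parentheses. This leaves 2842 protein-coding genes that could be measured, each only through the stretch shared with a row, so levels are compared between lines and never between genes. Levels are given as CPM, read counts scaled to a common library total after TMM normalization. Reads on genes numbered 3.07, 3.39 and 5.54 M in the SGCTRL libraries and 2.50, 4.08 and 3.62 M in the parental ones. The label gives the cell type as epithelial, but none of the 7 epithelial and 7 gastric markers listed had a row that measured it. VIM (VIM-AS1), the mesenchymal filament vimentin, was at 26344, 29644 and 22809.8 CPM in SGCTRL and 32053, 29844 and 25270.2 CPM in parental cells, groups that overlapped. No leukocyte or endothelial marker had such a row, and of 10 fibroblast markers 3 did, none of which passed the test between the lines.

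One property of the libraries moves with the line. Ambiguous reads, those that overlap more than 1 gene, were 2.21%, 2.11% and 2.24% of all reads on genes, ambiguous ones included, in SGCTRL, against 2.65%, 2.65% and 2.60% in parental cells. Over all 24 libraries the share was 2.10% to 2.24% in 8, namely the 6 SGCTRL libraries of both media and replicates 2 and 3 of SG21 in LPDS, and 2.58% to 3.15% in the other 16. Between SGCTRL and parental cells the line and this split cannot be told apart. In SG21 in LPDS they can be set apart to a degree, since replicate 1 has a share of 2.71% and replicates 2 and 3 have 2.15% and 2.18% under a single label. Values of these 3 libraries are therefore given beside most of the named genes that passed. Reads on protein-coding rows with no gene on the other strand were 3.87%, 3.60% and 4.07% in SGCTRL, against 4.08%, 4.31% and 4.17% in parental cells. Rank correlations of log2 CPM over the 12822 rows tested were 0.927 to 0.942 between SGCTRL libraries, 0.928 to 0.932 between parental libraries and 0.909 to 0.945 across the lines, as a description over rows that are not independent.

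In LPDS, 108 of 12822 rows differed between the lines, 0.842% of those tested (edgeR's quasi-likelihood test, Benjamini-Hochberg adjusted p under 0.05). Of these, 55 were higher in SGCTRL (0.429%) and 53 were lower (0.413%). In all 108 the 3 SGCTRL libraries lay wholly above or wholly below the 3 parental ones, as they did in 19.2% of all rows tested. The median log2 fold change over all rows was 0.01, and 1517 rows had an unadjusted p under 0.05. Counted by measured protein-coding gene, 25 of 2842 were higher in SGCTRL (0.880%) and 18 were lower (0.633%). By row, 29 higher and 19 lower calls had a protein-coding source gene, and 7 higher and 7 lower calls a source gene of another kind. No single source could be given for 9 higher and 11 lower rows, no gene lies on the other strand of 8 higher and 13 lower rows, and 2 higher and 3 lower rows could not be matched to the annotation.

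**Figure D1:**
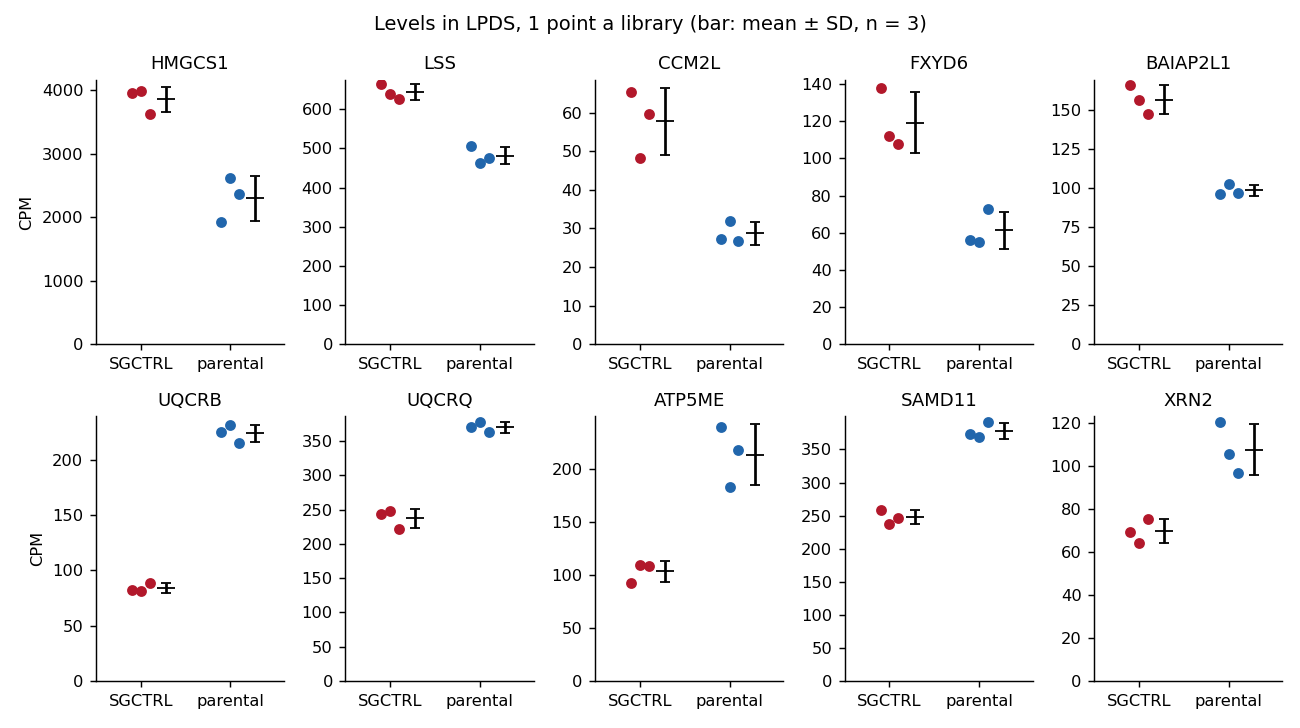
CPM of 10 named genes in LPDS, 1 point a library, with SGCTRL left of parental cells; black bars are the mean ± SD of 3 libraries and every axis starts at 0. In each panel the 3 SGCTRL libraries lie wholly on one side of the 3 parental libraries, above for HMGCS1, LSS, CCM2L, FXYD6 and BAIAP2L1, and below for UQCRB, UQCRQ, ATP5ME, SAMD11 and XRN2. All 108 rows called in LPDS are apart in this way, as are 19.2% of all rows tested.

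HMGCS1 had the smallest adjusted p among the genes named here. It encodes the cytosolic HMG-CoA synthase, an early enzyme of cholesterol synthesis, and lies on chromosome 5, 43289395 to 43313512 (hg38, minus strand); it is read under ENSG00000261604, which shares 703 exonic bases with it. Its levels were 3965, 3992 and 3636 CPM in SGCTRL, against 1920.4, 2617 and 2368 CPM in parental cells. All 3 SGCTRL libraries exceeded the highest parental one, and the log2 fold change was 0.75 ± 0.10 (SE, edgeR adjusted p = 8.49e-05). LSS (ENSG00000223901), the lanosterol synthase that closes the sterol ring, lies on chromosome 21, 46188141 to 46228824 (minus strand) and shares 122 bases with its row. It had 665, 638 and 625 CPM in SGCTRL, against 505, 463 and 476 CPM in parental cells, again without overlap, and rose by 0.42 ± 0.10 (adjusted p = 0.0247). The LSS call was lost without any one of the 6 libraries, with log2 fold changes of 0.34 to 0.45 and adjusted p of 0.0640 to 0.216.

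These 2 were the only sterol synthesis genes that passed among the 6 measured of 20 listed, and the median of the 6 was 0.21 against 0.06 for all measured genes. Among all measured genes 0.880% were called higher in SGCTRL. FDFT1 (ENSG00000255046), squalene synthase, had 34.6, 30.5 and 25.2 CPM in SGCTRL, against 21.1, 25.9 and 25.8 CPM in parental cells (0.29, adjusted p = 0.636). The lines overlapped. ACAT2 (TCP1), the cytosolic thiolase at the start of the pathway, had 403, 398 and 377 CPM in SGCTRL, against 398, 422 and 402 CPM in parental cells (-0.05, adjusted p = 0.907). IDI1 (IDI2-AS1), the isopentenyl diphosphate isomerase, had 408, 427 and 440.1 CPM in SGCTRL, against 441, 422 and 531 CPM in parental cells (-0.13, adjusted p = 0.835). Both overlapped as well. The listed genes with no row that measured them give no value.

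The sequence upstream of the starts of HMGCS1 and LSS is given here because these are the sterol synthesis genes that rose; each line holds the 250 bases before a RefSeq start (GRCh38.p14, minus strand, 5′ to 3′), with the pentamer CCAAT or its reverse complement in capitals. CCAAT is the core of the NF-Y box, which often stands near SREBP sites.
HMGCS1, chr5:43313413-43313662: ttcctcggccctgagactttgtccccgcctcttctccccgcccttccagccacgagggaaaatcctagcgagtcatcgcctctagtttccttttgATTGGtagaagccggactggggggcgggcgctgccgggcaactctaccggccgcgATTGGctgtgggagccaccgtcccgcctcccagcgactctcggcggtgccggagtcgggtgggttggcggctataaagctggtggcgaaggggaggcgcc
LSS, chr21:46228775-46229024: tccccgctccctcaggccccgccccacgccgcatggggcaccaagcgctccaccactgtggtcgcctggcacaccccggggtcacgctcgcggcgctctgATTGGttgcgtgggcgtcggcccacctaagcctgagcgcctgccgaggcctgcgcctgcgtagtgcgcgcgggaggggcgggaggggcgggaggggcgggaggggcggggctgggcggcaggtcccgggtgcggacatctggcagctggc
On either strand, CCAAT occurred 2 times in the HMGCS1 window shown and 1 time in that of LSS. HMGCS1 has another RefSeq start, whose window (chr5:43313182-43313431) holds none. Of 35116 RefSeq windows of this length, 32% hold CCAAT. A form of the sterol element, TCACNCCAC, was searched on both strands too, and these letters are in none of the 3 windows. It occurred upstream of ALDOC, BAIAP2L1, IER2 and SREBF2, 4 of the 40 named genes with a window, and in 0.883% of all windows. A gene counts here with a match in any of its windows, so the shares differ in unit. The 40 also include genes that were not called. These matches describe the letters and were not tested for binding.

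No gene of sterol uptake and SREBP control passed in LPDS, with 5 of 18 measured and a median of 0.10. NPC1 (RMC1), the lysosomal cholesterol exporter, had 79.6, 92.3 and 86.4 CPM in SGCTRL, against 78.8, 74.4 and 74.8 CPM in parental cells (0.18 ± 0.16, adjusted p = 0.731), with the lines apart. SREBF2 (SREBF2-AS1), the gene of SREBP-2, had 627, 592 and 562 CPM in SGCTRL, against 516, 595 and 545 CPM in parental cells (0.10 ± 0.11, adjusted p = 0.781), and SREBF1 (RAI1), the gene of SREBP-1, had 43.3, 39.7 and 49.0 CPM in SGCTRL, against 56.0, 42.3 and 64.4 CPM in parental cells (-0.29 ± 0.18, adjusted p = 0.563). For both SREBP genes the lines overlapped.

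TMEM97 itself was not called between the lines. Read under IFT20, through 361 bases at its 3′ end, it had 164, 173 and 150.3 CPM in SGCTRL, against 142, 169.9 and 147 CPM in parental cells. The log2 fold change was 0.08 ± 0.12 (adjusted p = 0.854), with overlapping groups. IFT20 (TMEM97), the neighbour that faces it, had 87.0, 105 and 82.9 CPM in SGCTRL, against 70.2, 86.9 and 76.2 CPM in parental cells (0.23 ± 0.14, adjusted p = 0.562). GAPDH (ENSG00000269968) had 38843, 39572 and 34891 CPM in SGCTRL, against 41085, 35959.6 and 34666 CPM in parental cells, a log2 fold change of 0.02 ± 0.08 (adjusted p = 0.955). PGRMC1, a partner of TMEM97, had no row that measured it.

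**Figure D2:**
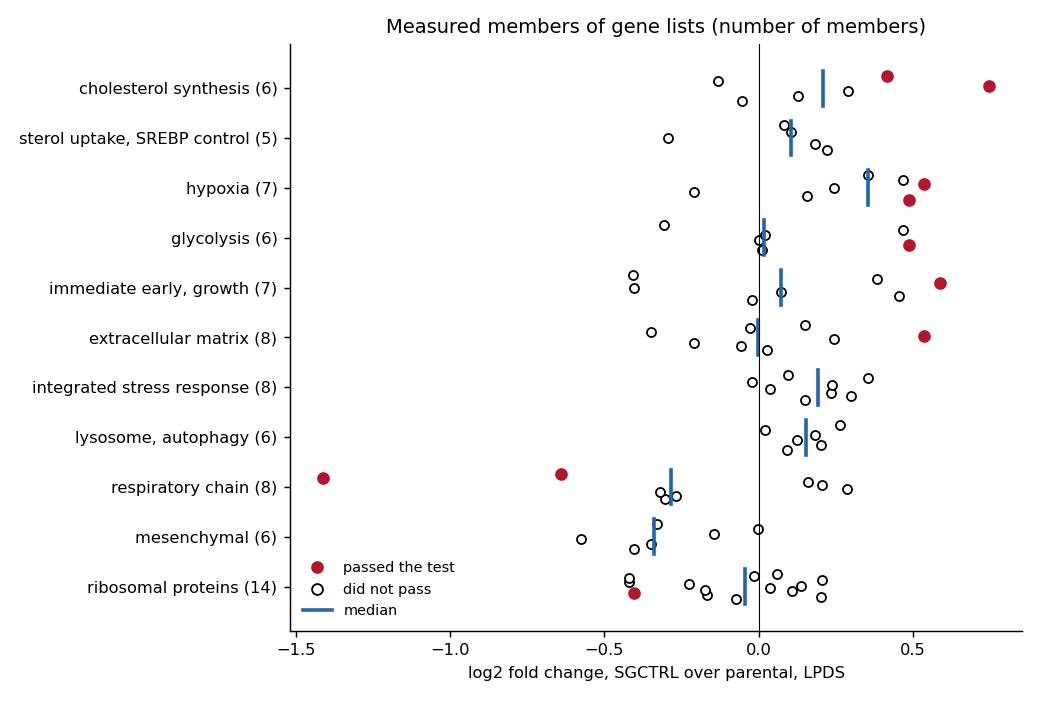
Log2 fold change of SGCTRL over parental cells in LPDS for the measured members of 11 gene lists, 1 circle a gene; filled circles passed the test and blue lines are list medians. Among the genes drawn, from the lists named on the vertical axis, HMGCS1 at 0.75 is the highest circle and UQCRB at -1.41 the lowest.

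Outside the sterol lists, the rises with the smallest adjusted p among the named genes were those of FXYD6, CCM2L and BAIAP2L1. CCM2L (ENSG00000226239), a relative of the endothelial scaffold CCM2, lies on chromosome 20, 32010450 to 32032180. It had 65.5, 48.3 and 59.6 CPM in SGCTRL, against 27.2, 32.1 and 26.9 CPM in parental cells, a log2 fold change of 1.00 ± 0.16 (adjusted p = 0.000888). Every SGCTRL library stood above every parental one. FXYD6 (FXYD6-AS1), a regulator of the sodium pump on chromosome 11, 117836976 to 117877486, had 138, 112 and 108 CPM in SGCTRL, against 56.0, 54.8 and 72.9 CPM in parental cells (0.95 ± 0.14, adjusted p = 0.000323). BAIAP2L1 (BRI3), an actin-bundling membrane adaptor on chromosome 7, 98291651 to 98401068, had 166, 156 and 147 CPM in SGCTRL, against 95.8, 103 and 96.5 CPM in parental cells (0.66 ± 0.12, adjusted p = 0.00244). The lines were apart in both, and the calls of these 3 genes and of HMGCS1 held when any 1 of the 6 libraries was left out.

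SNTB1 (MTBP), the adaptor beta-1-syntrophin, averaged 232 ± 5.67 CPM in SGCTRL and 152 ± 13.6 CPM in parental cells (SD, n = 3 each), with a log2 fold change of 0.61 (edgeR adjusted p = 0.0043). SLCO4A1 (SLCO4A1-AS1), an organic anion transporter, averaged 105 ± 8.46 CPM in SGCTRL and 66.5 ± 3.55 CPM in parental cells (0.66, adjusted p = 0.0056). IER2 (ENSG00000267598), an immediate early gene, averaged 3190.5 ± 269 CPM in SGCTRL and 2123 ± 159 CPM in parental cells (0.59, adjusted p = 0.0088). GSTM3 (ENSG00000241720), a glutathione transferase, rose by 0.58 (adjusted p = 0.00739), and CCDC110 (ENSG00000249679), a coiled-coil gene, by 0.91 (adjusted p = 0.00952). SNAP47 (JMJD4), a SNARE protein, rose by 0.58 (adjusted p = 0.0166). ANKRD33B (ENSG00000251196) rose by 0.59 (adjusted p = 0.0453) and LRATD2 (PCAT1) by 0.66 (adjusted p = 0.041). In these 8 genes the 3 SGCTRL libraries lay above the 3 parental ones, which the rule for naming them required. In SG21, LRATD2 had 254 and 233 CPM in replicates 2 and 3 and 149.8 CPM in replicate 1, and SNAP47 281 and 243 CPM in replicates 2 and 3 and 181 CPM in replicate 1. SLCO4A1 had 159 and 151 CPM in replicates 2 and 3 and 119 CPM in replicate 1, IER2 2125 and 2199 CPM in replicates 2 and 3 and 1759.6 CPM in replicate 1, and GSTM3 352 and 315 CPM in replicates 2 and 3 and 285 CPM in replicate 1. In these 5 genes the SG21 libraries of the low ambiguous share were the higher ones, as were those of ANKRD33B, with 71.2 and 78.5 CPM in replicates 2 and 3 and 68.2 CPM in replicate 1. CCDC110 had 92.5 and 63.1 CPM in replicates 2 and 3 and 64.9 CPM in replicate 1, so that its replicate 1 lay between the others. Left out singly, SGCTRL replicate 2 ended all 8 calls (adjusted p 0.0630 to 0.258), SGCTRL replicate 1 ended all but SNTB1 (0.0568 to 0.230) and SGCTRL replicate 3 ended the call of ANKRD33B (0.147). Parental replicate 1 ended the calls of CCDC110, ANKRD33B and LRATD2 (0.0670 to 0.194), parental replicate 2 ended all but SNTB1 and GSTM3 (0.0595 to 0.158) and parental replicate 3 ended all but SLCO4A1 (0.0509 to 0.262).

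Of the hypoxia list, 7 of 19 genes were measured, 2 rose, none fell, and the median was 0.35. Among all measured genes 0.880% rose and 0.633% fell, and the median was 0.06. P4HA2 (P4HA2-AS1), a subunit of collagen prolyl 4-hydroxylase, had 194, 179 and 165 CPM in SGCTRL, against 111, 141 and 118 CPM in parental cells (0.54 ± 0.12, adjusted p = 0.0247). ALDOC (ENSG00000265168), a glycolytic aldolase, had 1009, 1077 and 915 CPM in SGCTRL, against 734, 700.1 and 707 CPM in parental cells (0.49 ± 0.10, adjusted p = 0.011). In both the lines did not overlap, and in SG21 replicate 1 lay between replicates 2 and 3, with 123 and 110.1 CPM in replicates 2 and 3 and 118 CPM in replicate 1 for P4HA2 and 982 and 806 CPM in replicates 2 and 3 and 907 CPM in replicate 1 for ALDOC. The other members ranged from -0.21 for LOX to 0.47 for PDK1, with VEGFA at 0.35 (adjusted p = 0.0773). ALDOC was also the only one of 6 measured glycolysis genes to pass, P4HA2 the only one of 8 extracellular matrix genes, and IER2 the only one of 7 immediate early and growth genes. These lists share members, so the counts are not separate. Left out singly, SGCTRL replicate 2 ended both calls (adjusted p 0.127 to 0.153), SGCTRL replicate 1 ended both calls (0.0977 to 0.196) and parental replicate 1 ended the call of P4HA2 (0.151). Parental replicate 2 ended the call of ALDOC (0.0599) and parental replicate 3 ended both calls (0.0762 to 0.137).

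Among protein-coding source genes above 47.8 CPM, the 2 largest falls were of UQCRB and ATP5ME, both subunits of mitochondrial complexes. UQCRB (UQCRB-AS1), a subunit of complex III that helps to hold ubiquinone, lies on chromosome 8, 96225920 to 96235634. It had 81.9, 81.2 and 89.1 CPM in SGCTRL, against 225, 231 and 216 CPM in parental cells, a log2 fold change of -1.41 ± 0.24 (adjusted p = 0.00134). UQCRQ (GDF9), another small subunit of complex III, lies on chromosome 5, 132866560 to 132868031 and had 243, 248 and 222 CPM in SGCTRL, against 370.3, 378 and 363 CPM in parental cells (-0.64 ± 0.13, adjusted p = 0.00667). In both, every SGCTRL library stood below every parental one, and both calls held without any single library. ATP5ME (MYL5), a membrane subunit of ATP synthase, had 92.3, 109.5 and 108 CPM in SGCTRL, against 239.9, 183 and 218 CPM in parental cells (-1.04 ± 0.24, adjusted p = 0.0247). The ATP5ME call was lost without SGCTRL replicate 2 (0.0630), SGCTRL replicate 1 (0.0812), SGCTRL replicate 3 (0.0640) or parental replicate 1 (0.134), each with its adjusted p. Of the respiratory chain list, 8 of 48 genes were measured, 2 fell (UQCRB and UQCRQ), none rose, and the median was -0.28. Over all measured genes 0.633% fell and 0.880% rose, with a median of 0.06. NDUFB9 (0.28), NDUFS7 (0.21) and SDHC (0.16) had positive values and NDUFB8 (-0.32), ATP5PD (-0.30) and NDUFA2 (-0.27) negative ones, none of which passed.

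The fall of UQCRB and ATP5ME also appeared inside the knockout line SG21 in LPDS, along the split in ambiguous reads. UQCRB had 89.7 and 76.3 CPM in replicates 2 and 3 and 293 CPM in replicate 1 of SG21. ATP5ME had 85.7 and 70.8 CPM in replicates 2 and 3 and 253 CPM in replicate 1. In both genes replicates 2 and 3 were at the level of SGCTRL and replicate 1 was above the parental level. UQCRQ had 353 and 258 CPM in replicates 2 and 3 and 447 CPM in replicate 1, where replicate 2 lay between SGCTRL and parental cells. With a term for the split in the model, the log2 fold changes of UQCRB and ATP5ME turned to 0.41 and 0.65, that of UQCRQ was -0.10, and none was called. In that model the split is estimated from the 3 SG21 libraries alone.

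Other genes lower in SGCTRL shared this behaviour in part. ACOT13 (ENSG00000272345), an acyl-CoA thioesterase of mitochondria, had 108, 108 and 104 CPM in SGCTRL, against 181, 164 and 179 CPM in parental cells (-0.71 ± 0.18, adjusted p = 0.0381). In SG21 it had 112 and 102 CPM in replicates 2 and 3 and 232 CPM in replicate 1. HMGN3 (HMGN3-AS1), a nucleosome-binding protein, had 84.3, 61.5 and 95.8 CPM in SGCTRL, against 134, 139 and 133 CPM in parental cells (-0.74 ± 0.18, adjusted p = 0.0327). Its SG21 libraries again divided with the split, at 88.3 and 82.2 CPM in replicates 2 and 3 and 181 CPM in replicate 1. UFC1 (ENSG00000224985), the conjugating enzyme for the ubiquitin-like UFM1, averaged 68.8 ± 8.33 CPM in SGCTRL and 115 ± 6.59 CPM in parental cells (-0.74, adjusted p = 0.0263), and had 93.1 and 76.7 CPM in replicates 2 and 3 and 165 CPM in replicate 1 of SG21. BCAT1 (ENSG00000256482), the cytosolic branched-chain aminotransferase, averaged 136 ± 3.31 CPM in SGCTRL and 213 ± 9.80 CPM in parental cells (-0.65, adjusted p = 0.0178), and had 190.2 and 152 CPM in replicates 2 and 3 and 288 CPM in replicate 1. With the split term these 4 genes had log2 fold changes of 0.41, 0.34, 0.21 and 0.10, all above 0. Left out singly, SGCTRL replicate 2 ended all 4 calls (adjusted p 0.0630 to 0.214), SGCTRL replicate 1 ended the calls of ACOT13 and HMGN3 (0.0597 to 0.0625) and SGCTRL replicate 3 ended the calls of ACOT13 and UFC1 (0.0640 to 0.109). Parental replicate 1 ended all 4 calls (0.0683 to 0.148) and parental replicate 2 ended all 4 calls (0.0713 to 0.119).

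**Figure D3:**
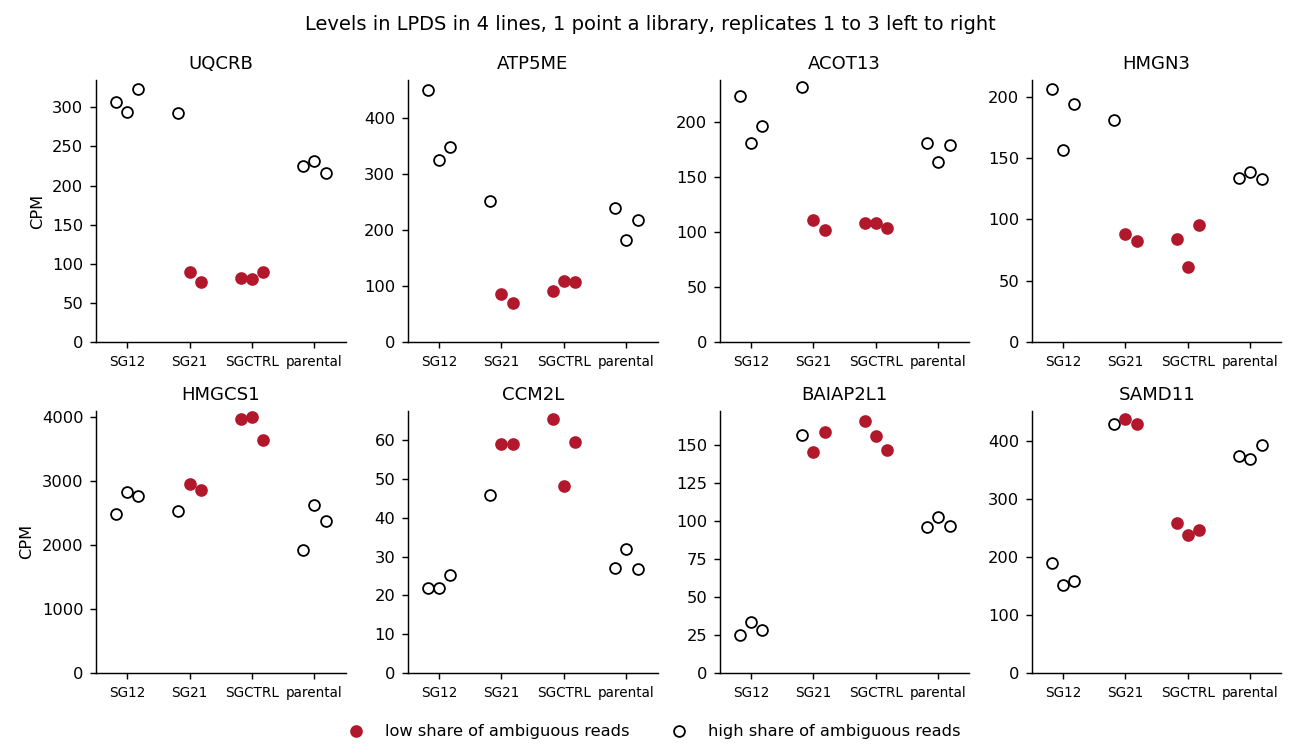
CPM in LPDS of 4 genes lower (top) and 3 genes higher and 1 lower (bottom) in SGCTRL than in parental cells, in the lines SG12, SG21, SGCTRL and parental, 1 point a library with replicates left to right; filled points are the libraries with a low share of ambiguous reads. The top row divides SG21 replicate 1 from replicates 2 and 3, as for UQCRB at 293 against 89.7 and 76.3 CPM, whereas the SG21 libraries lie together for BAIAP2L1 and SAMD11.

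SAMD11 and BAIAP2L1 showed no such division inside SG21. SAMD11 (NOC2L), a chromatin-associated gene on chromosome 1, 923928 to 944581, had 259, 238 and 247 CPM in SGCTRL, against 374, 369 and 392 CPM in parental cells (-0.61 ± 0.10, adjusted p = 0.00134). The groups were apart, the call held without any single library, and SG21 had 438 and 429.9 CPM in replicates 2 and 3 and 429 CPM in replicate 1. BAIAP2L1 had 146 and 158 CPM in replicates 2 and 3 and 156 CPM in replicate 1 of SG21. HMGCS1 had 2944 and 2859 CPM in replicates 2 and 3 and 2522 CPM in replicate 1, so that the libraries of the low share were the higher ones and all 3 were below the SGCTRL range. SNTB1 had 160.4 and 158 CPM in replicates 2 and 3 and 143 CPM in replicate 1, near the parental level. LSS had 775 and 766 CPM in replicates 2 and 3 and 603 CPM in replicate 1, CCM2L 59.0 and 59.1 CPM in replicates 2 and 3 and 46.0 CPM in replicate 1, and FXYD6 176 and 189.7 CPM in replicates 2 and 3 and 145 CPM in replicate 1. In these 3 genes, higher in SGCTRL, replicates 2 and 3 were again the higher ones. With the split term SAMD11 was at -0.63 (adjusted p = 0.331), BAIAP2L1 at 0.71 (adjusted p = 0.331) and HMGCS1 at 0.54 (adjusted p = 0.335). CCM2L was at 0.64, FXYD6 at 0.62 and LSS at 0.06 in that model. No row of the table passed under that term, with 1206 at an unadjusted p under 0.05.

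Across all calls the same comparison can be counted. Of the 18 genes lower in SGCTRL, 16 (88.9%) had both SG21 replicates 2 and 3 below replicate 1, against 40.5% of all 2842 measured genes. Of the 25 genes higher in SGCTRL, 18 (72%) had both above replicate 1, against 37.2% of all, and none had both below. These SG21 libraries were in neither group compared, but they entered the model and its shared estimate of the spread. The list of calls is therefore not independent of them. The SG21 libraries number 3, so the counts describe them and carry no test.

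Further falls included those of XRN2, H2AZ1, RPL30, ZNF428 and SULF2. XRN2 (ENSG00000275457), the nuclear 5′ to 3′ exoribonuclease, had 69.2, 64.3 and 75.3 CPM in SGCTRL, against 120.2, 106 and 96.5 CPM in parental cells (-0.62 ± 0.15, adjusted p = 0.038). H2AZ1 (H2AZ1-DT), the histone variant H2A.Z and the only histone gene measured, had 984, 985 and 952 CPM in SGCTRL, against 1342, 1378 and 1204 CPM in parental cells (-0.43 ± 0.11, adjusted p = 0.041). The lines were apart in both. RPL30 (RPL30-AS1) averaged 3374 ± 195 CPM in SGCTRL and 4463 ± 413 CPM in parental cells (-0.40, adjusted p = 0.0218), the only one of 14 measured ribosomal protein genes to pass, with a list median of -0.04. Among all measured genes 0.633% were called lower. ZNF428 (SRRM5), a zinc-finger gene, fell to 86.1 ± 1.16 CPM in SGCTRL, against 128 ± 8.17 CPM in parental cells (-0.57, adjusted p = 0.0191). SULF2 (ENSG00000255438), an extracellular heparan sulfatase, averaged 213 ± 5.89 CPM in SGCTRL and 292 ± 20.9 CPM in parental cells (-0.45, adjusted p = 0.0248). In all 5 genes SG21 replicate 1 was above replicates 2 and 3, as for H2AZ1 at 1523 and 1203 CPM in replicates 2 and 3 and 1804 CPM in replicate 1. Left out singly, SGCTRL replicate 2 ended all 5 calls (adjusted p 0.0630 to 0.170), SGCTRL replicate 1 ended the calls of XRN2 and H2AZ1 (0.0597 to 0.0920) and SGCTRL replicate 3 ended all 5 calls (0.0640 to 0.109). Parental replicate 1 ended all 5 calls (0.0957 to 0.238) and parental replicate 2 ended all 5 calls (0.0599 to 0.177). By the median length of their protein-coding transcripts, 9 of the 18 falls were among the 711 shortest measured genes (365 to 1792 bases), whose median log2 fold change was 0.02, and 6 among the 710 longest, whose median was 0.10. Of the 25 rises, 5 were among the 711 shortest and 5 among the 710 longest.

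None of the 6 measured mesenchymal markers passed. Their values ran from -0.58 for TWIST1 (adjusted p = 0.104) to just under 0 for ZEB1, all negative, with a median of -0.34. The common sign did not repeat in FBS, where the median was -0.03. There TWIST1 (0.07), ZEB2 (0.42) and ZEB1 (0.44) were positive and VIM (-0.13), SPARC (-0.33) and CD44 (-0.26) negative. The 8 measured genes of the integrated stress response had a median of 0.19 and none passed, and the 6 lysosome and autophagy genes had a median of 0.15, all above 0 and none called. Fatty acid and glycerolipid synthesis (9 genes, median 0.11), the TCA cycle (7, -0.02), DNA replication (9, -0.10), oxidative stress and iron (6, 0.08), tRNA charging (6, -0.04) and adhesion (5, -0.16) had no call in either direction. No call was made either among LXR targets, lipid droplet, ER chaperone, heat shock, mitosis, p53, TGF-beta and Wnt or YAP genes, each with 2 to 4 measured members. Interferon, antigen presentation, NF-kB and mitochondrially encoded genes had no measured member.

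Rows with no source gene hold reads that the overlap rule gave to no single gene, and are named after themselves. Some do have a gene on the other strand, namely P3H2 for P3H2-AS1, SYT15-AS1 for SYT15 and MAN2A1 for RN7SKP230. The TNFAIP2 row had 53.4, 54.5 and 47.3 CPM in SGCTRL, against 14.6, 13.5 and 12.3 CPM in parental cells, the largest rise of this kind (1.94 ± 0.29, adjusted p = 0.000323). The lines were far apart, and the 3 SG21 libraries were at 0.371, 1.99 and 2.57 CPM. The ZBTB7C, P3H2-AS1, SYT15 and GSS rows rose by 1.75, 1.75, 1.27 and 1.03, at means of no more than 25.1 CPM in SGCTRL. Left out singly, SGCTRL replicate 2 ended all 4 calls (adjusted p 0.0790 to 0.286), SGCTRL replicate 1 ended all 4 calls (0.113 to 0.134) and SGCTRL replicate 3 ended the calls of P3H2-AS1 and GSS (0.0972 to 0.191). Parental replicate 1 ended all 4 calls (0.111 to 0.224), parental replicate 2 ended all but ZBTB7C (0.218 to 0.268) and parental replicate 3 ended all but SYT15 (0.0526 to 0.118). The MT-TS1 row, named after a mitochondrial serine tRNA, had 44.7, 48.9 and 69.1 CPM in SGCTRL, against 381, 383 and 464 CPM in parental cells (-2.89 ± 0.57, adjusted p = 0.00689). In SG21 it had 63.3 and 68.2 CPM in replicates 2 and 3 and 678 CPM in replicate 1, and the split term turned it to 0.48; that of TNFAIP2 turned to -0.54. The RN7SKP230, RPL23AP42, RPL29 and MKI67 rows had log2 fold changes of -2.23, -1.99, -1.85 and -1.75, with means of 2.68 to 3.63 CPM in SGCTRL, against 9.57 to 14.2 CPM in parental cells. Left out singly, SGCTRL replicate 2 ended all 4 calls (adjusted p 0.0790 to 0.261), SGCTRL replicate 1 ended the calls of RPL29 and MKI67 (0.0568 to 0.113) and SGCTRL replicate 3 ended all but MKI67 (0.0566 to 0.152). Parental replicate 1 ended all but RPL23AP42 (0.0683 to 0.130) and parental replicate 2 ended all 4 calls (0.0832 to 0.238). By the leak estimated for reads of a gene on its own row, 70.3% of the RPL23AP42 reads could be its own. What the reads of the other 3 rows come from was not tested, so none is read as the messenger RNA of the gene it is named after.

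The same pair of lines was also grown in FBS, with 6 other libraries. There 2338 rows passed (18.2%), 1038 higher and 1300 lower in SGCTRL, and of measured genes 429 were higher (15.1%) and 227 lower (7.99%); the row count was 1061 without parental replicate 2 of FBS. Of the 108 LPDS calls, 93 passed in FBS in the same direction, which is 86.1% of the LPDS calls and 3.98% of the FBS calls. The other 15 had the same sign and did not pass, and none had the opposite sign. All 6 SGCTRL libraries of both media have the low share of ambiguous reads, so FBS does not separate the line from the split. HMGCS1 had 1869, 1843 and 2189.7 CPM in SGCTRL in FBS, against 1004, 902 and 979 CPM in parental cells (1.03 ± 0.10, adjusted p = 1.32e-08). UQCRB had 92.2, 83.9 and 83.6 CPM in SGCTRL in FBS, against 244, 244 and 218 CPM in parental cells (-1.44 ± 0.24, adjusted p = 7.06e-05). Both repeated the direction of LPDS without overlap.

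**Figure D4:**
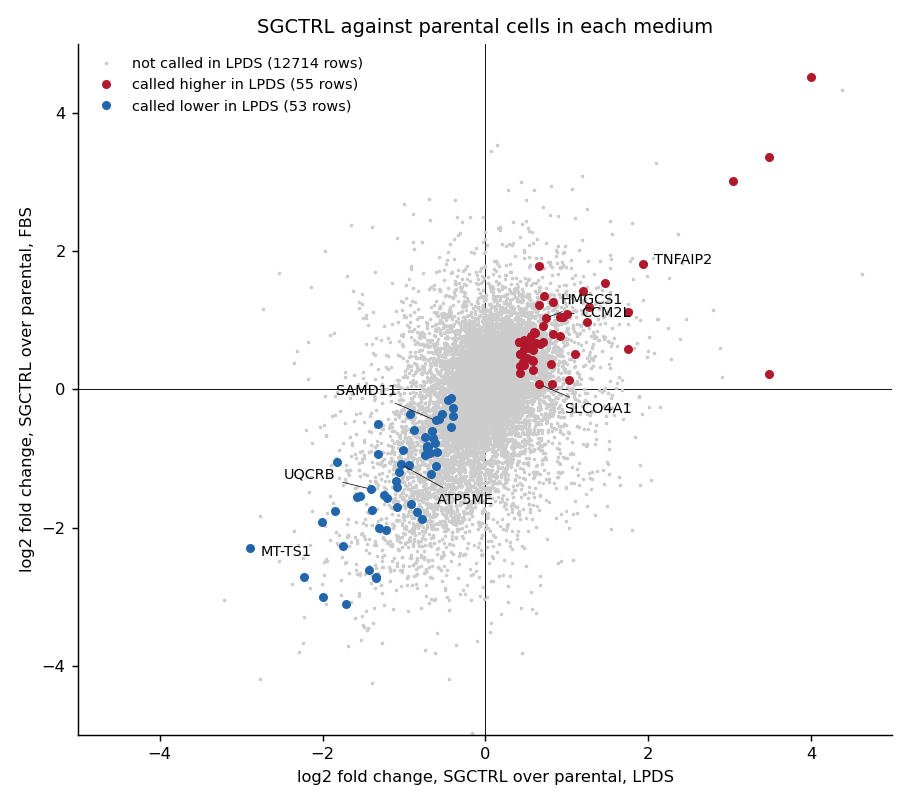
Log2 fold change of SGCTRL over parental cells in LPDS (horizontal) and FBS (vertical), 1 point a row, with LPDS calls coloured and 4 rows outside the axes not shown. The 55 rows called higher and 53 called lower in LPDS lie on the same side of 0 in FBS.

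Differences in size between the media were tested directly. The line difference of HMGCS1 in LPDS minus that in FBS was -0.29 ± 0.14 (adjusted p = 0.49), and that of LSS -0.26 ± 0.14 (adjusted p = 0.513). NPC1 and SREBF2 passed in FBS at 0.51 and 0.47 but not in LPDS, and the differences of -0.33 and -0.37 did not pass (adjusted p = 0.656 and 0.384). SLCO4A1 was called in LPDS and stood at 0.07 in FBS (adjusted p = 0.74), yet its difference of 0.59 ± 0.18 did not pass (adjusted p = 0.214). Of the integrated stress response list, 0 of 8 genes were higher in LPDS, where 0.880% of all measured genes were, and 5 of 8 in FBS, where 15.1% were, and no member passed the test of the difference. That test called 7 of 12822 rows, 0.0546%.

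Of these 7, SLC29A2 and STAG3 are source genes. SLC29A2 (B4GAT1-DT), a nucleoside transporter, had 570.4, 544 and 545 CPM in SGCTRL, against 444, 469 and 491 CPM in parental cells in LPDS. In FBS it had 572, 578 and 579 CPM in SGCTRL, against 319, 279 and 334 CPM in parental cells. The lines were apart in both media, with 0.24 ± 0.10 in LPDS, which did not pass (adjusted p = 0.282), and 0.89 ± 0.10 in FBS (adjusted p = 8.09e-08), a difference of -0.65 ± 0.14 (adjusted p = 0.0454). STAG3 (CASTOR3P), a cohesin subunit known from meiosis, had 23.2, 26.8 and 22.9 CPM in SGCTRL, against 30.5, 31.3 and 28.5 CPM in parental cells in LPDS. In FBS it had 45.9, 54.2 and 41.2 CPM in SGCTRL, against 20.6, 27.8 and 24.8 CPM in parental cells. SGCTRL was thus below parental cells in LPDS, where the test did not pass (-0.31, adjusted p = 0.496), and above them in FBS (0.95, adjusted p = 0.000186), with a difference of -1.26 ± 0.24 (adjusted p = 0.0413). A refit with a library left out has a smaller group, so reliance on that library and the smaller group cannot be told apart. The count of 7 changed when single libraries were left out. It became 0 without parental replicate 3 or SGCTRL replicate 1 or 2 in LPDS, or without parental replicate 2 or SGCTRL replicate 2 or 3 in FBS. It became 1, 4 and 2 without parental replicate 1 in LPDS, SGCTRL replicate 3 in LPDS and SGCTRL replicate 1 in FBS, and 24 and 19 without parental replicate 2 in LPDS and parental replicate 1 in FBS.

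**Figure D5:**
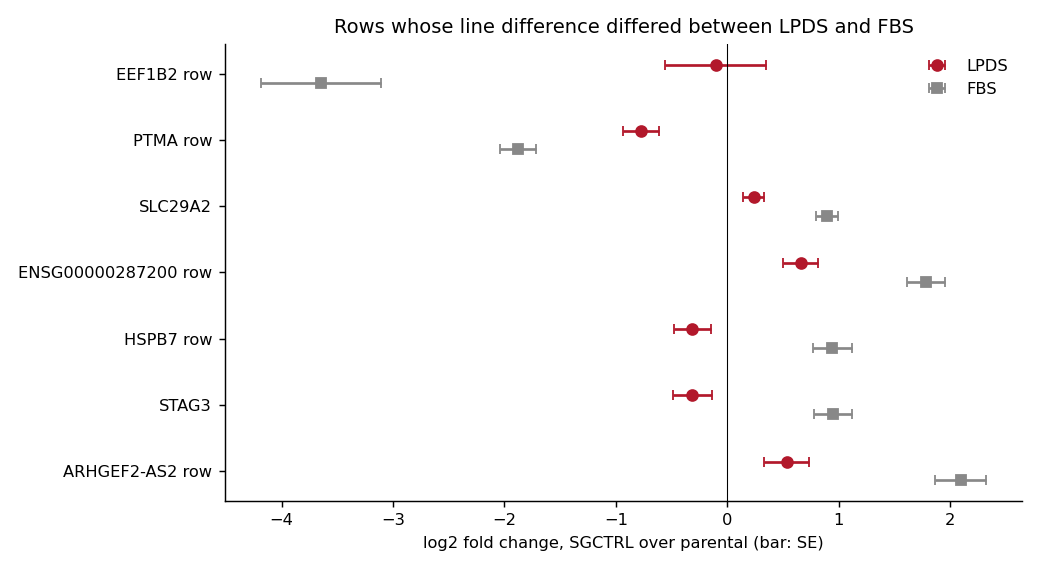
Log2 fold change of SGCTRL over parental cells in LPDS (red circles) and in FBS (grey squares), with SE bars, for the 7 rows whose line difference differed between the media. STAG3 and the HSPB7 row have values below 0 in LPDS and above 0 in FBS.

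How the calls changed was measured by leaving each library out, which also makes its group smaller. Every refit kept the other libraries of all 8 groups, so the spread inside groups not compared also entered its p-values. For ATP5ME the SD was 101 CPM in SG21 in LPDS, against 9.65 CPM in SGCTRL and 28.8 CPM in parental cells. The count of 108 became 25 without SGCTRL replicate 2, 34 without parental replicate 1 or 2, 50 without SGCTRL replicate 1, 69 without SGCTRL replicate 3 and 94 without parental replicate 3. Of the 40 named genes and rows that passed, 31 were lost without SGCTRL replicate 2 (adjusted p 0.063 to 0.286), 26 without parental replicate 2, 23 without parental replicate 1, 22 without SGCTRL replicate 1, 15 without SGCTRL replicate 3 and 14 without parental replicate 3, with adjusted p of at most 0.268 in these. No sign changed. HMGCS1, CCM2L, FXYD6, BAIAP2L1, SAMD11, UQCRB, UQCRQ and the TNFAIP2 and MT-TS1 rows were the 9 that held in each of these and under every other setting except the split term.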

How the data were processed

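Strand-specific libraries from 100 ng of ribosome-depleted total RNA (Illumina, Ribo-Zero Plus) were deposited by the authors as raw read counts per gene name. The submitters' processing notes name bcl2fastq, STAR and hg38. The counter, its strand setting and its annotation are not given in the sources used here. Reads that fell on no named gene were 94.33% to 94.46% of uniquely aligned reads in the 6 libraries and, with ambiguous reads, stayed out of library sizes and tests.

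Of 61578 rows, 56730 matched GENCODE 29 by name. A row's source gene is the gene on the other strand with at least 50 shared exonic bases and 80% of the row's overlap. A gene counted as measured above a mean of 5.70 CPM, the 90th percentile of protein-coding rows with no gene on the other strand, with at most 50% of the row's reads estimated to come from the gene it is named after (a leak of 0.0972% of that gene's level). All 24 libraries entered 1 model (edgeR 4.0.16 quasi-likelihood test in R 4.3.3, TMM, filterByExpr, 12822 rows). Adjusted p-values are Benjamini-Hochberg over all rows, and an SE is the log2 fold change divided by the square root of F. DESeq2 1.42.0 gave alternatives. The steps were tested on simulated data.

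Text names were taken from passing protein-coding source genes above 47.8 CPM (the 99th percentile) with groups apart, the 12 with the largest rise and the 12 with the largest fall, from passing list members (up to 6 a list), cholesterol list members and 9 genes set by name; some of these are not reported here. Added were the 5 largest rises and falls of rows with no source gene whose average log2 CPM reached 2, and the rows whose line difference differed between media. The members and lists were chosen with earlier results of these data known. Same replicate numbers did not pair the libraries (correlations of -0.01, -0.09 and 0.06), so the model has no block. Intervals and p-values do not cover a library split that moves with the line.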

Additional observations from a re-analysis of the deposited data

Results flagged for a closer look

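For 7 rows the difference between SGCTRL and parental cells differed between the media in an interaction test (edgeR's quasi-likelihood test, adjusted p under 0.05). In 3 of them the value was above 0 in both media and smaller in LPDS, and only that of ENSG00000287200 passed in LPDS. That call was lost without SGCTRL replicate 1 or 2 (adjusted p 0.185 and 0.120) or parental replicate 1, 2 or 3 (0.135, 0.0962 and 0.0844). For the ARHGEF2-AS2 row the log2 fold change was 0.53 in LPDS and 2.10 in FBS, a difference of -1.56 ± 0.30 (SE, adjusted p = 0.0413). For the ENSG00000287200 row the values were 0.66 and 1.79, a difference of -1.13 ± 0.23 (adjusted p = 0.0454). For SLC29A2 (B4GAT1-DT) they were 0.24 and 0.89, a difference of -0.65 ± 0.14 (adjusted p = 0.0454).

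Both STAG3 (CASTOR3P), with a difference of -1.26 ± 0.24, and the HSPB7 row, with -1.26 ± 0.24, had LPDS values of -0.31 that did not pass and positive FBS values of 0.95 and 0.94 (adjusted p of the difference = 0.0413 for each).

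The EEF1B2 and PTMA rows have no source gene; no gene lies on the other strand of PTMA, and NDUFS1 lies on that of EEF1B2. EEF1B2 had log2 fold changes of -0.11 in LPDS and -3.65 in FBS, a difference of 3.54 ± 0.71 (adjusted p = 0.0454). Its row is near the floor, with a mean of 3.72 CPM over all libraries, below the 5.70 CPM asked of a measured gene. In FBS it had 0.340, 0.946 and 1.14 CPM in SGCTRL, against 8.17, 14.4 and 9.74 CPM in parental cells. PTMA had -0.78 and -1.88, a difference of 1.10 ± 0.23 (adjusted p = 0.0454). Its LPDS value passed too (edgeR adjusted p = 0.00909), and that call was lost without SGCTRL replicate 2 or parental replicate 2. With 1332 rows at an unadjusted p under 0.05 and counts of 0 to 85 under other settings, these 7 depend on the processing. No group had 4 or more libraries, so no library was tested for standing apart from its group.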

How the results depend on the processing

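The LPDS count of 108 was 115 with DESeq2 size factors, 122 with a filter of at least 1 CPM in 3 libraries, 129 (61 higher, 68 lower) with the replicate block and 125 (44 higher, 81 lower) with all uniquely aligned reads as library size. It was 218 (114 higher, 104 lower) by DESeq2's Wald test, 190 (73 higher, 117 lower) without a count filter and 314 (113 higher, 201 lower) with only the compared groups in the model. It was 75 (26 higher, 49 lower) with the share of reads on protein-coding rows with no gene on the other strand as covariate, and 0 (0 higher, 0 lower) with the term for the library split. Leaving out 1 library gave 25 to 94 (14 to 41 higher, 11 to 67 lower). The replicate block kept 107 of the 108 and ended among the named calls only that of the GSS row. Same-numbered libraries did not pair. Without a count filter the calls of SULF2, ZNF428 and the GSS row were lost, and with the 1 CPM filter those of ANKRD33B and the GSS row. Uniquely aligned reads as library size ended those of ANKRD33B, LRATD2 and the GSS row, and the compared groups alone that of the ZBTB7C row. The covariate shared 53 calls with the 108 and ended those of LSS, ALDOC, P4HA2, HMGN3, UFC1, SNAP47, LRATD2, ANKRD33B and ZNF428 and of the ZBTB7C, GSS, ENSG00000287200, PTMA, MKI67, RPL29 and RN7SKP230 rows (adjusted p 0.0503 to 0.164). The FBS count of 2338 was 153 with the split term, 126 with the covariate and 1061 to 2443 with 1 library left out. The count of 7 for the difference between media was 0 with DESeq2 size factors, 21 by the Wald test, 85 without a filter, 0 with the compared groups alone, 11 with the replicate block, 14 with the split term, 0 with the covariate, 0 with uniquely aligned reads, and 0 to 24 with 1 library left out. Under the split term 9 of the named calls turned sign: TNFAIP2 to -0.54, LRATD2 (PCAT1) to -0.044, BCAT1 to 0.10, ACOT13 to 0.41, HMGN3 to 0.34, UFC1 to 0.21, ATP5ME to 0.65, UQCRB to 0.41 and MT-TS1 to 0.48. The cause was not tested, and that term rests on 3 SG21 libraries. Of all values of named genes and rows under alternatives, 655 kept their call with its direction or stayed uncalled, 188 lost the call and 9 calls turned sign. For values that stayed uncalled the direction was not compared. Depth of 2.50 to 5.54 M reads on genes and the need for an overlapping row limit which genes can be read.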
